A study of Homo sapiens with 6 samples.

Results

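The ERBB receptors and the EGF-family ligands were examined in AN3CA, an established human endometrial cancer (EC) line that expresses *PAX2*. The set was taken by symbol and comprised the 4 receptors *EGFR*, *ERBB2*, *ERBB3* and *ERBB4* and the 6 ligands *AREG*, *EREG*, *HBEGF*, *TGFA*, *NRG1* and *BTC*. Of these 10 genes, 8 were among the 17471 genes with values, and *AREG* and *BTC* were not analysed here. RNA-Seq was performed on 6 libraries. In 3 of them (shEV, genotype WT) the cells carried the lentiviral vector pGFP-C-shLenti without an insert, and in the other 3 (shPAX2, genotype *PAX2* KD) the same vector held a hairpin against *PAX2*, which encodes a developmental transcription factor. Both groups were selected with puromycin, and a single hairpin was used, so an effect of *PAX2* knockdown (KD) and any other effect of that hairpin cannot be told apart. The comparison asked which genes differ after *PAX2* KD in a line that retains *PAX2*. Another passage of the study names a scrambled control for this line.

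The values were TPM, that is, reads per gene divided by gene length and scaled to the library total, and levels below are compared between genes only on this scale. The reads behind them numbered 10730909 to 18221859 in the shEV libraries and 19422615 to 29405787 in the shPAX2 libraries, so depth moved with group, and its part in the results was not tested. shPAX2 replicate 1 stood somewhat apart from its group: chi-square per degree of freedom between it and the other shPAX2 libraries was 12.0 and 14.8, against 3.12 to 5.30 between the other pairs of libraries within a group. The labels give the cells as epithelial. Of 11 epithelial markers with values, only *KRT18* reached 1 TPM in any library, and *CDH1*, *EPCAM*, *KRT7*, *KRT8*, *KRT19*, *CLDN4* and *CLDN7* stayed under 0.5 TPM in all 6. The summed epithelial markers ran from 11.3 to 13.5 TPM in shEV and from 12.5 to 18.3 TPM in shPAX2. Of 8 mesenchymal markers, 4 reached 1 TPM, and their sum, mostly *VIM* and *COL1A2*, was 4937 to 5351 TPM in shEV and 4205 to 4387 TPM in shPAX2. Of the 4 immune markers with values, *CD68* alone reached 1 TPM, with sums of 1.12 to 1.79 TPM in shEV and 1.82 to 2.58 TPM in shPAX2, and the 3 endothelial markers together stayed at or below 0.0611 TPM. The part of the epithelial, mesenchymal and immune values in the results was not tested.

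The targeted gene was checked first. *PAX2* was at 4.03, 3.66 and 2.74 TPM in shEV and 0.916, 0.723 and 1.17 TPM in shPAX2, on 41 to 136 reads per library. It fell to 26.9% of the shEV mean, with no overlap between the groups (log2 fold change −1.47, SE 0.18, adjusted p = 0.000294). Here and below, fold changes are shPAX2 over shEV on the log2(TPM + 0.5) scale, which understates changes of low genes, and adjusted p-values are from limma with Benjamini-Hochberg adjustment over 13163 genes, with an adjusted p under 0.05 as the test's threshold. The labels do not say whether libraries came from separate cultures, so the p-values measure the spread between these libraries, which may be technical.

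ERBB receptors are transmembrane tyrosine kinases that pair after ligand binding and signal through RAS-ERK and PI3K. EGFR binds EGF, TGF-α, HB-EGF, amphiregulin, epiregulin and betacellulin, whereas ERBB3 and ERBB4 bind neuregulins. ERBB2 has no known soluble ligand and serves as the favoured partner of the others, and ERBB3 has little kinase activity of its own. The ligands are made as membrane-bound precursors that metalloproteases release, and the family is known as a driver of epithelial growth in many carcinomas.

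The 2 members with the largest changes were *EGFR* and *TGFA*, a receptor and one of its ligands, and the 250 bases before their annotated starts are shown because these genes moved in opposite directions. The sequences are from RefSeq on GRCh38.p14, read 5′ to 3′ on the gene's strand, at chr7:55018767-55019016 (plus strand) for *EGFR* and chr2:70553827-70554076 (minus strand) for *TGFA*. Capitals mark GC boxes, the letters GGGCGG on either strand.
EGFR: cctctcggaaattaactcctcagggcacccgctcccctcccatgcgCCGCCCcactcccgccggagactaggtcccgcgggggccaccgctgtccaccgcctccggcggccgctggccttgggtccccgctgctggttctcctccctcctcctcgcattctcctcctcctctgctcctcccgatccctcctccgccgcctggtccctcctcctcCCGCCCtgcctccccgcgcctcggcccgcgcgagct
TGFA: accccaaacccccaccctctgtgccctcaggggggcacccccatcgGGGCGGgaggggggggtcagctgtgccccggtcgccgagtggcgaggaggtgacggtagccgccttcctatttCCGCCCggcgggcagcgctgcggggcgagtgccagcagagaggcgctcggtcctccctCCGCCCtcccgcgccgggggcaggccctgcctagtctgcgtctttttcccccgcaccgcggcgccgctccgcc
The 2 promoters were alike in base composition, with 73.6% G and C for *EGFR* and 75.6% for *TGFA*, against a median of 58.0% over 35116 RefSeq promoters of this length. A GC box was present 2 times in the *EGFR* window and 3 times in that of *TGFA*, and 42.6% of all promoters held at least 1. Neither window held TATAAA (in 10.7% of promoters), the AP-1 letters TGANTCA (6.57%) or the paired-domain core GTCACGC (2.20%), each searched on both strands. As neither window held another motif searched, no overlap with the GC boxes was possible. Each gene has 2 starts in the table, and the first is shown. The window of the second *EGFR* start held 2 matches of TATAAA, 2 of TGANTCA and 0 GC boxes, and that of the second *TGFA* start held none of the 4 motifs, so the counts hold for the first starts alone. These matches describe letters in a window and say nothing of binding.

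Among the 6 members that passed the filter of 0.5 TPM in at least 3 libraries, *EGFR* rose, *ERBB2* and *TGFA* fell, and *ERBB3*, *ERBB4* and *HBEGF* did not pass the test. The 3 called members are to be read against a background in which 42.8% of all tested genes were called, 12.2% higher and 30.5% lower in shPAX2. A log2 fold change of at least 1 in size was reached by *EGFR* and *TGFA*, against 4.54% of tested genes (1.43% higher and 3.11% lower). Ranges were separate between the groups in 4 of the 6 members, as in 54.9% of all tested genes. The median log2 fold change was 0.04 over the 6 members and −0.10 over all tested genes. The counts for members thus lie near the background shares apart from those past the fold threshold, and with 6 genes no share is precise. The members were chosen with earlier results of these data known, and *TGFA* passed the filter through the shEV libraries alone. The count past the fold threshold is therefore a description.

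*EGFR* (chromosome 7, 55086710 to 55279321, GRCh37, plus strand), the receptor for TGF-α, HB-EGF and EGF, was at 5.87, 5.51 and 6.22 TPM in shEV replicates 1 to 3, on 207, 320 and 369 reads. In shPAX2 it was at 20.2, 20.2 and 22.3 TPM, on 2027, 1787 and 1428 reads. Every shPAX2 library lay above every shEV library by a wide margin, and the libraries within a group were close. The mean rose 3.56-fold, from 5.87 ± 0.354 to 20.9 ± 1.22 TPM (SD, n = 3 per group), with a log2 fold change of 1.75 (SE 0.08, 95% interval 1.57 to 1.93, limma adjusted p = 9.96e-07). Of all genes tested, 78 had a larger log2 fold change, which is 0.593%. The 12 tested genes within 2 Mb of *EGFR* ranged from −0.26 to 0.32 on the log2 scale with a median of 0.04, and none passed the fold threshold. At the test's threshold 3 of them were higher and 1 was lower, where 12.2% and 30.5% of all tested genes were.

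*ERBB2* (chromosome 17, 37844167 to 37886679, plus strand), the partner receptor, was at 28.4, 29.7 and 31.1 TPM in shEV on 783, 1347 and 1442 reads. It was at 23.4, 21.4 and 19.5 TPM in shPAX2 on 1834, 1479 and 977 reads. All shPAX2 libraries were lower than all shEV libraries, although the gap was small beside that of *EGFR*. The mean fell to 72.0% of the shEV level (29.8 ± 1.35 to 21.4 ± 1.92 TPM, SD, n = 3 per group), a log2 fold change of −0.47 (SE 0.08, 95% interval −0.64 to −0.29, limma adjusted p = 0.00153). The gene overlaps *PGAP3* and *MIEN1* on the opposite strand and *MIR4728* on its own, and whether the counting used strand is not given in the sources used here.

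*ERBB3* (chromosome 12, 56470583 to 56497289, plus strand), the neuregulin receptor with weak kinase activity, was at 3.37, 3.20 and 3.68 TPM in shEV (112 to 206 reads). In shPAX2 it was at 3.29, 2.86 and 3.19 TPM (193 to 312 reads). The groups overlapped. The log2 fold change was −0.12 with a 95% interval of −0.37 to 0.14 (limma adjusted p = 0.444), so a change of more than 0.37 in either direction lay outside the interval, and the sign turned with quantile normalization (0.15).

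*ERBB4* (chromosome 2, 212240442 to 213403565, minus strand), the neuregulin receptor with full kinase activity, was the receptor with the lowest level. It was at 0.437, 0.598 and 0.455 TPM in shEV on 28, 63 and 49 reads, and at 0.964, 0.765 and 0.860 TPM in shPAX2 on 176, 123 and 100 reads. The shPAX2 libraries were all above the shEV libraries, but the lowest shPAX2 and the highest shEV library were close. In shEV only replicate 2 reached 0.5 TPM, so the gene passed the filter through the shPAX2 libraries, where it was higher. Means were 0.497 ± 0.0880 and 0.863 ± 0.0996 TPM (SD, n = 3 per group), a log2 fold change of 0.45 (SE 0.17, 95% interval 0.07 to 0.83), and the limma adjusted p of 0.0551 missed the threshold. At these counts the call depended on the settings: it was made at the same log2 fold change with no filter (adjusted p = 0.0234) and without trend (0.00973), at 0.51 with median-of-ratios scaling (0.0367), at 0.66 with quantile normalization (0.0168) and at 0.80 with limma-voom on the reads (0.00444). The threshold was missed with pseudocounts of 0.1 and 1 (0.054 and 0.0605) and on leaving out each library in turn (0.0614 to 0.141).

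**Figure D1:**
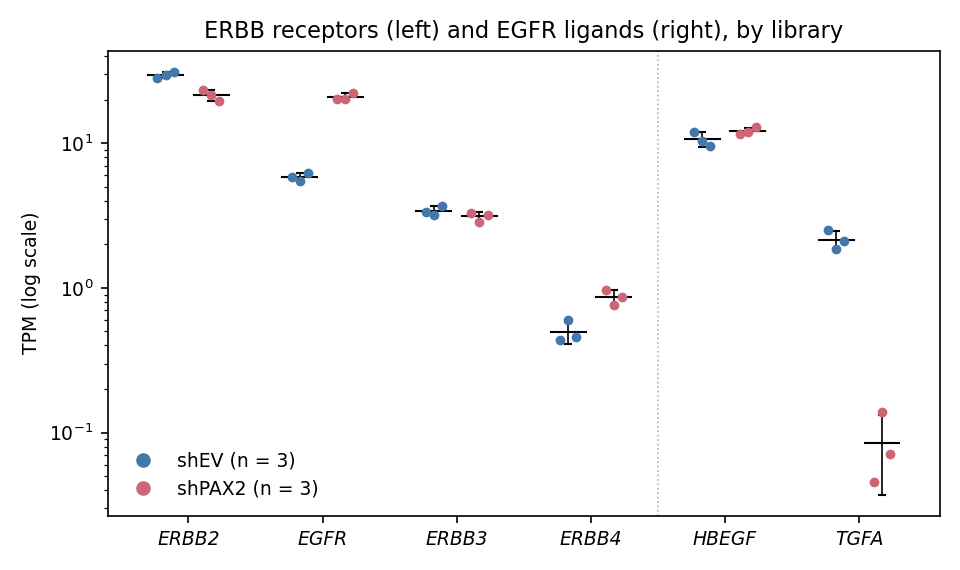
TPM of the 6 tested members on a log axis in 3 shEV (blue) and 3 shPAX2 (red) libraries; points are libraries, horizontal lines group means and bars 1 SD. *EGFR* sits near 5.87 TPM in shEV and 20.9 TPM in shPAX2, *TGFA* near 2.16 and 0.0848 TPM, and the groups overlap for *ERBB3* and *HBEGF*.

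The makeup of the receptor transcripts differed accordingly. The 4 receptors summed to 38.1, 39.0 and 41.5 TPM in shEV and 47.8, 45.2 and 45.9 TPM in shPAX2. *EGFR* made up 15.4%, 14.1% and 14.98% of that sum in shEV and 42.2%, 44.6% and 48.6% in shPAX2, and *ERBB2* 74.6%, 76.2% and 75.0% in shEV and 48.9%, 47.3% and 42.6% in shPAX2. In shEV *ERBB2* was therefore the dominant receptor transcript in each library, and in shPAX2 both receptors were at similar shares, with *EGFR* ahead in replicate 3 only. The ratio of *EGFR* to *ERBB2*, which does not depend on library scaling, was 0.206, 0.185 and 0.200 in shEV and 0.862, 0.943 and 1.14 in shPAX2 (means 0.197 ± 0.0107 and 0.982 ± 0.143, SD, n = 3 per group, two-sided exact permutation p = 0.1, the smallest that 3 against 3 allows). *ERBB3* held 8.63% ± 0.384 of the receptor sum in shEV and 6.73% ± 0.345 in shPAX2, and *ERBB4* 1.26% ± 0.238 and 1.86% ± 0.163 (SD, n = 3 per group).

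**Figure D2:**
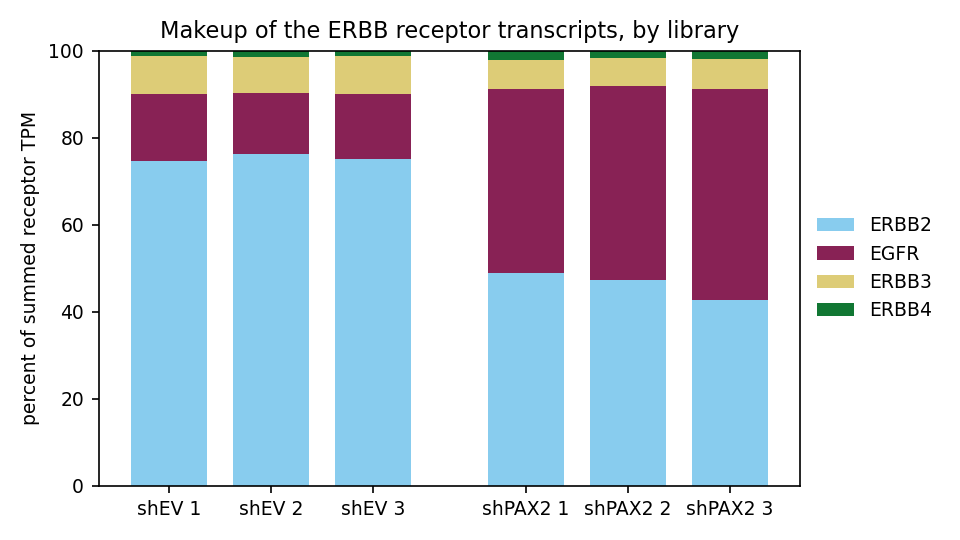
Share of each receptor (percent of the summed TPM of *EGFR*, *ERBB2*, *ERBB3* and *ERBB4*, vertical axis) in each of the 6 libraries. *EGFR* takes 14.1% to 15.4% in shEV and 42.2% to 48.6% in shPAX2, and *ERBB2* takes the greater part of the remainder in every library.

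*TGFA* (chromosome 2, 70674416 to 70781325, minus strand) encodes TGF-α, an EGFR ligand. It was at 2.51, 1.86 and 2.11 TPM in shEV on 58, 71 and 82 reads, and at 0.0455, 0.138 and 0.0713 TPM in shPAX2 on 3, 8 and 3 reads. The gene was nearly absent from every shPAX2 library although these were the deeper ones, and it passed the filter on low values through the shEV libraries alone. The mean fell to 3.93% of the shEV level (2.16 ± 0.324 to 0.0848 ± 0.0476 TPM, SD, n = 3 per group), with a log2 fold change of −2.18 (SE 0.17, 95% interval −2.57 to −1.79, limma adjusted p = 2.61e-05). The pooled reads, 211 against 14, gave a depth-corrected ratio of shEV over shPAX2 of 25.0 (exact 95% interval 14.6 to 46.5, covering counting error only). The size of the fitted change depended on the pseudocount, with −3.63 at 0.1 and −1.54 at 1, and limma-voom gave −4.60. Only 65 tested genes had a lower log2 fold change. Among the 31 tested genes within 2 Mb of *TGFA*, 14 were lower and 1 was higher, where 30.5% and 12.2% of all tested genes were. Past the fold threshold were 3 of them, the protein-coding *DYSF* (−1.04) and *ANTXR1* (−1.01) and the small nucleolar RNA gene *SNORA36C* (−1.64). The log2 fold changes of the 31 had a range of −1.64 to 0.23 on the log2 scale and a median of −0.25, against a median of −0.12 over 798 tested genes of chromosome 2.

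*HBEGF* (chromosome 5, 139712428 to 139726188, minus strand) encodes HB-EGF, which binds EGFR and ERBB4. It was at 12.0, 10.4 and 9.58 TPM in shEV (152 to 217 reads) and at 11.6, 12.0 and 12.9 TPM in shPAX2 (297 to 420 reads). shEV replicate 1 lay within the range of the shPAX2 libraries. The means were 10.7 ± 1.23 and 12.2 ± 0.652 TPM (SD, n = 3 per group), with a log2 fold change of 0.19 (SE 0.09, 95% interval −0.02 to 0.40, limma adjusted p = 0.134). The test was passed without shEV replicate 1 (log2 fold change 0.27, adjusted p = 0.0410), with median-of-ratios scaling (0.29, adjusted p = 0.0367) and with quantile normalization (0.38, adjusted p = 0.0171). It was not passed on leaving out each of the other libraries (adjusted p = 0.126 to 0.351) or with limma-voom (0.0903).

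*EREG* (chromosome 4, 75230862 to 75254466, plus strand), which encodes the EGFR and ERBB4 ligand epiregulin, and *NRG1* (chromosome 8, 31496738 to 32713184, plus strand), the best known ligand of ERBB3 and ERBB4, were not tested because of low values. Each had a value in shEV replicate 3 alone (0.0239 TPM for *EREG* and 0.0142 TPM for *NRG1*), taken as 1 read, and 0 reads in the other 5 libraries. A value in 1 library gives no ratio, so this read is the smallest whole number and not a recovered count. A count of 0 allows up to 3 reads, so neither transcript was detectable above that level, and a difference between the groups could not be assessed.

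The remaining family ligands were examined as a list of 5 genes. *EGF*, *NRG2* and *NRG4* were tested, *EPGN* was below the filter, and *NRG3* was not analysed here. Of the 3 tested, 2 fell and none rose, with a median log2 fold change of −0.72, where 30.5% of all tested genes were lower. *NRG4*, a ligand of ERBB4, was at 4.01, 3.99 and 4.32 TPM in shEV and 1.35, 1.63 and 1.60 TPM in shPAX2. It fell to 37.1% with no overlap (log2 fold change −1.19, SE 0.12, limma adjusted p = 0.00011), and it overlaps *FBXO22* on the opposite strand. *NRG2*, a ligand of ERBB3 and ERBB4, was at 10.6, 10.0 and 9.68 TPM in shEV and 6.30, 6.04 and 5.53 TPM in shPAX2, again without overlap, and fell by 0.72 on the log2 scale (SE 0.09, limma adjusted p = 0.000276). *EGF*, the founding EGFR ligand, was at 3.24, 2.78 and 2.80 TPM in shEV and 2.67, 2.39 and 2.75 TPM in shPAX2. All shPAX2 values of *EGF* lay below the shEV values by a margin small beside the spread, and its log2 fold change of −0.15 (SE 0.12, limma adjusted p = 0.358) turned to 0.13 with quantile normalization.

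**Figure D3:**
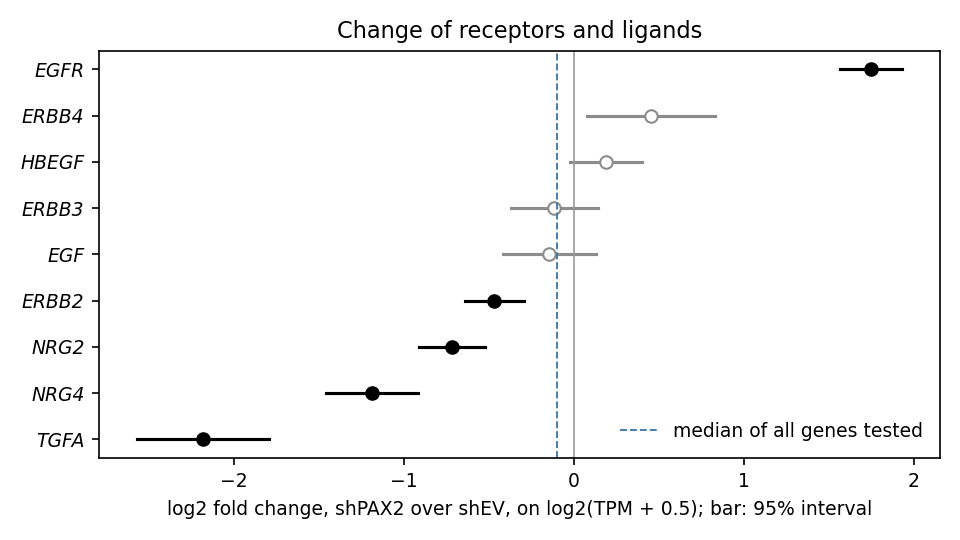
Log2 fold change of shPAX2 over shEV on the log2(TPM + 0.5) scale (horizontal axis) with 95% intervals for the tested receptors and ligands; filled points passed the test, open points did not, and the dashed line is the median of all tested genes (−0.10). *EGFR* is the only filled point on the positive side, at 1.75, and *TGFA* (−2.18), *NRG4* (−1.19), *NRG2* (−0.72) and *ERBB2* (−0.47) lie on the negative side.

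The EGFR ligands that passed the filter, *HBEGF*, *TGFA* and *EGF*, together summed to 15.8 ± 1.74 TPM in shEV against 14.9 ± 0.747 TPM in shPAX2 (SD, n = 3 per group, two-sided exact permutation p = 0.6). *TGFA* made up 13.7% ± 1.15 of this sum in shEV and 0.572% ± 0.331 in shPAX2, and *HBEGF* 67.7% ± 1.51 and 81.9% ± 0.769. With *NRG2* and *NRG4* added, the sum came to 29.96 ± 2.07 TPM in shEV and 22.4 ± 0.446 TPM in shPAX2 without overlap (SD, n = 3 per group, two-sided exact permutation p = 0.1, the smallest possible). In a bulk library, fewer cells with a transcript and less of it per cell cannot be told apart.

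The order of levels in shEV was *ERBB2*, *HBEGF*, *EGFR*, *ERBB3*, *TGFA* and *ERBB4*, and no neighbours in this order overlapped over the 3 libraries. *EREG* and *NRG1*, at the bottom, could not be ordered. In shPAX2 *ERBB2* (19.5 to 23.4 TPM) and *EGFR* (20.2 to 22.3 TPM) overlapped at the top, followed without overlap by *HBEGF*, *ERBB3*, *ERBB4* and *TGFA*. The genes whose pattern over the 6 libraries was most like that of *TGFA*, the member with the largest change, were *NAP1L3* (r = 0.9997), *UNC13B* (r = 0.999) and *PARP14* (r = 0.999), by Pearson correlation of log2(TPM + 0.5) over 10525 genes. This is a description: 2252 genes had r of at least 0.9, since the 6 points fall into 2 groups.

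Genes that act on these ligands and receptors were examined as 5 further lists. For ligand shedding and maturation, 11 of 14 genes were tested, and 2 rose, 5 fell and 4 did not pass (median log2 fold change −0.26). *CD9*, a tetraspanin that associates with membrane-bound HB-EGF, was at 107.2, 97.6 and 96.5 TPM in shEV and 55.4, 56.4 and 59.4 TPM in shPAX2, and fell by 0.81 on the log2 scale (SE 0.06, limma adjusted p = 2.44e-05). *ADAM9*, a metalloprotease, was at 39.5, 37.5 and 37.05 TPM in shEV and 54.1, 66.8 and 68.7 TPM in shPAX2, and rose by 0.72 on the log2 scale (SE 0.09, limma adjusted p = 0.000352). *ADAM17*, the main sheddase of TGF-α, fell by 0.33 on the log2 scale (adjusted p = 0.00902), and its cofactors *RHBDF1* and *RHBDF2* fell by 0.26 and 0.50 on the log2 scale (adjusted p = 0.0313 and 0.00532). The call of *RHBDF2* was lost with quantile normalization (adjusted p = 0.0745), and that of *RHBDF1* in 7 settings, among them both other scalings, limma-voom and the omission of shPAX2 replicate 1 (adjusted p up to 0.493). *TIMP3*, an inhibitor of ADAM17, was at 4.55, 3.61 and 4.44 TPM in shEV and 5.70, 11.5 and 11.1 TPM in shPAX2, with replicate 1 low. Its log2 fold change of 1.02 (SE 0.27, limma adjusted p = 0.0249) passed the test, but the call was lost without any 1 of shEV replicates 1 to 3 or shPAX2 replicates 2 and 3, and with limma-voom. Without shPAX2 replicate 1 the list held 2 higher and 4 lower genes. Quantile normalization left 3 lower. Over all tested genes 5722 and 4856 were called in these settings, in the order given, against 5629 as reported.

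For receptor attenuation and trafficking, 21 of 22 genes were tested, and 1 rose, 12 fell and 8 did not pass (median log2 fold change −0.22). The shares over all tested genes were 12.2% higher and 30.5% lower, with a median of −0.10. *LRIG3*, of a family of leucine-rich membrane proteins that modulate ERBB receptors, was at 5.63, 5.23 and 6.33 TPM in shEV and 0.0467, 0.106 and 0.122 TPM in shPAX2. It passed the filter through the shEV libraries alone. It fell to 1.60% (log2 fold change −3.39, SE 0.14, limma adjusted p = 7.69e-07), and its pooled reads, 561 against 14, gave a depth-corrected ratio of 66.5 (exact 95% interval 39.3 to 122). The fitted change ran from −2.62 with a pseudocount of 1 to −5.96 with limma-voom. *ERRFI1*, which encodes the EGFR kinase inhibitor MIG6, was at 14.4, 17.6 and 19.5 TPM in shEV and 6.60, 7.92 and 7.17 TPM in shPAX2, and fell by 1.19 on the log2 scale (SE 0.12, limma adjusted p = 9.13e-05). These genes did not overlap between the groups, as was so for 54.9% of all tested genes. *SH3KBP1*, the CBL-binding adaptor of receptor endocytosis, was at 15.9, 16.6 and 16.8 TPM in shEV and 9.60, 7.08 and 7.23 TPM in shPAX2, and fell by 1.01 on the log2 scale (SE 0.11, limma adjusted p = 0.000174). The ubiquitin ligase gene *CBLB* was at 9.79, 10.6 and 11.3 TPM in shEV and 5.46, 5.77 and 5.28 TPM in shPAX2, and fell by 0.88 on the log2 scale (SE 0.09, limma adjusted p = 9.78e-05). *STUB1*, a ubiquitin ligase of the chaperone system, was the gene that rose (log2 fold change 0.20, adjusted p = 0.0140), a call that was lost without shPAX2 replicate 2 (adjusted p = 0.0707). *RNF41*, the ligase for ERBB3, was at 28.8, 30.4 and 31.0 TPM in shEV and 30.6, 37.9 and 44.6 TPM in shPAX2, overlapping at replicate 1 (log2 fold change 0.31, SE 0.12, limma adjusted p = 0.0804). It passed with median-of-ratios scaling (adjusted p = 0.0304), quantile normalization (0.0346) and limma-voom (0.0412), and without shPAX2 replicate 1 (log2 fold change 0.45, adjusted p = 0.00359). The split of 12 lower and 1 higher became 9 and 3 with median-of-ratios scaling, 8 and 4 with quantile normalization, and 10 and 2 without shPAX2 replicate 1. It was 8 and 1 without shEV replicate 3, 8 and 0 without shPAX2 replicate 2, and 8 and 1 without shPAX2 replicate 3. Calls over all tested genes, in either direction, moved from 5629 to 5412 with median-of-ratios scaling and to 4856 with quantile normalization. They numbered 5722 without shPAX2 replicate 1, 4429 without shEV replicate 3, 3906 without shPAX2 replicate 2 and 4565 without shPAX2 replicate 3.

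For receptor partners and chaperones, 5 of 8 genes were tested, and 3 rose and none fell (median log2 fold change 0.25), where 12.2% of all tested genes were higher. Without shPAX2 replicate 2 the list held 2 higher genes, and calls over all tested genes went from 5629 to 3906. The 3 were the HSP90 genes, *HSP90AB1* and *HSP90AA1*, and their kinase cochaperone *CDC37*. *HSP90AB1* was at 1588, 1602 and 1631 TPM in shEV and 2593, 3200 and 3189 TPM in shPAX2, and rose by 0.89 on the log2 scale (SE 0.08, limma adjusted p = 7.28e-05). *HSP90AA1* rose by 0.31 on the log2 scale and *CDC37* by 0.25 (adjusted p = 0.00797 and 0.0101), and the call of *CDC37* was lost without shPAX2 replicate 2 (adjusted p = 0.0547). *CD82*, a tetraspanin, was at 4.74, 4.42 and 3.54 TPM in shEV and 3.36, 3.20 and 4.48 TPM in shPAX2 (log2 fold change −0.18, limma adjusted p = 0.362), and its groups overlapped. *CD44*, *MUC1* and *MUC4* were below the filter.

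For proximal signalling, 29 of 35 genes were tested, and 1 rose, 15 fell and 13 did not pass (median log2 fold change −0.24). Among all tested genes 12.2% were higher and 30.5% lower, with a median of −0.10. *EPS8*, an EGFR kinase substrate, was at 1.78, 1.64 and 2.66 TPM in shEV and 0.144, 0.200 and 0.0753 TPM in shPAX2, and fell by 1.96 on the log2 scale (SE 0.20, limma adjusted p = 0.000105). It too passed the filter through shEV alone, and the fitted change was −1.39 with a pseudocount of 1, −3.15 with 0.1 and −3.78 with limma-voom. The pooled reads, 196 against 23, gave a depth-corrected ratio of 14.1 (exact 95% interval 9.15 to 22.8). *SHC4*, an adaptor that links receptors to RAS, was at 16.6, 17.2 and 19.3 TPM in shEV and 11.7, 9.57 and 8.86 TPM in shPAX2, and fell by 0.80 on the log2 scale (SE 0.11, limma adjusted p = 0.000523). Neither gene overlapped between the groups, as was so for 54.9% of all tested genes. The adaptor gene *GAB1* fell by 0.56 on the log2 scale, the PI3K catalytic gene *PIK3CA* by 0.46 and *STAT3*, a transcription factor downstream of the receptors, by 0.63 (adjusted p = 0.00146, 0.00246 and 9.25e-05). *HRAS* was the gene that rose (log2 fold change 0.27, SE 0.07, limma adjusted p = 0.0171), and its call was lost without shEV replicate 3 or without shPAX2 replicate 2. The split of 15 lower and 1 higher became 10 and 3 with median-of-ratios scaling, 9 and 1 with quantile normalization, and 15 and 2 without shPAX2 replicate 1. It was 10 and 0 without shPAX2 replicate 2 and 10 and 1 without shPAX2 replicate 3. Calls over all tested genes were 5412, 4856, 5722, 3906 and 4565 in these settings, in the order given, against 5629 as reported.

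**Figure D4:**
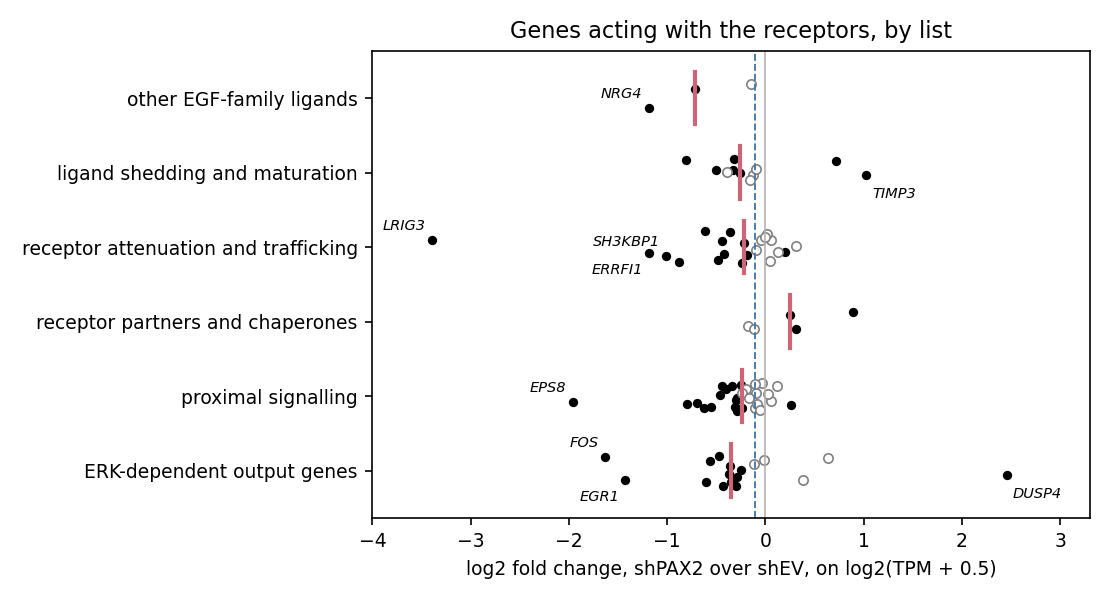
Log2 fold change of shPAX2 over shEV on the log2(TPM + 0.5) scale (horizontal axis) for the tested genes of 6 lists (rows); filled points passed the test, open points did not, red bars are list medians and the dashed line is the median of all tested genes. Most genes lie between −1 and 1, with *LRIG3* at −3.39 and *DUSP4* at 2.46 at the ends.

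For the ERK-dependent output genes, 17 of 18 were tested, and 1 rose, 12 fell and 4 did not pass (median log2 fold change −0.35). Across all tested genes 12.2% were higher and 30.5% lower, with a median of −0.10. *DUSP4*, which encodes a nuclear phosphatase of ERK, was at 10.3, 11.6 and 12.8 TPM in shEV and 64.0, 66.8 and 65.5 TPM in shPAX2, and rose by 2.46 on the log2 scale (SE 0.08, limma adjusted p = 1.52e-07). The immediate early gene *EGR1* was at 36.6, 34.5 and 41.7 TPM in shEV and 12.8, 14.0 and 14.1 TPM in shPAX2, and fell by 1.43 on the log2 scale (SE 0.08, limma adjusted p = 5.05e-06). *FOS*, another immediate early gene, was at 43.6, 22.5 and 29.7 TPM in shEV and 7.18, 11.3 and 10.7 TPM in shPAX2, and fell by 1.64 on the log2 scale (SE 0.31, limma adjusted p = 0.0120). None of these 3 genes overlapped between the groups, as was so for 54.9% of all tested genes, although *FOS* varied widely in shEV. The ERK phosphatase gene *DUSP6* (fell by 0.44), the feedback inhibitor genes *SPRY1* (0.61), *SPRY2* (0.30) and *SPRY4* (0.29) and the ETS factor genes *ETV4* (0.48) and *ETV5* (0.36) were also lower in shPAX2 by these log2 values, with adjusted p-values from 0.000267 to 0.0159. The calls of *SPRY2* and *SPRY4* were lost with median-of-ratios scaling (adjusted p = 0.0832 and 0.0791) and without shEV replicate 3 (0.0635 and 0.0558), and that of *SPRY2* also without shPAX2 replicate 2 (0.0571). *PHLDA1* was at 9.45, 10.3 and 14.0 TPM in shEV and 11.5, 22.5 and 20.8 TPM in shPAX2, overlapping at shPAX2 replicate 1 (log2 fold change 0.64, SE 0.31, limma adjusted p = 0.161), and without that library the log2 fold change was 0.93 and passed the test (adjusted p = 0.0056). The other genes that did not pass were *EPHA2* (log2 fold change 0.38, limma adjusted p = 0.116), *FOSL1* (−0.01, 0.956) and *SPRED1* (−0.12, 0.302). The split of 12 lower and 1 higher became 7 and 1 with median-of-ratios scaling, 10 and 1 with quantile normalization, 10 and 3 without shPAX2 replicate 1, and 7 and 1 without shEV replicate 3. Calls over all tested genes were 5412, 4856, 5722 and 4429 in these settings, in the order given, against 5629 as reported.

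**Figure D5:**
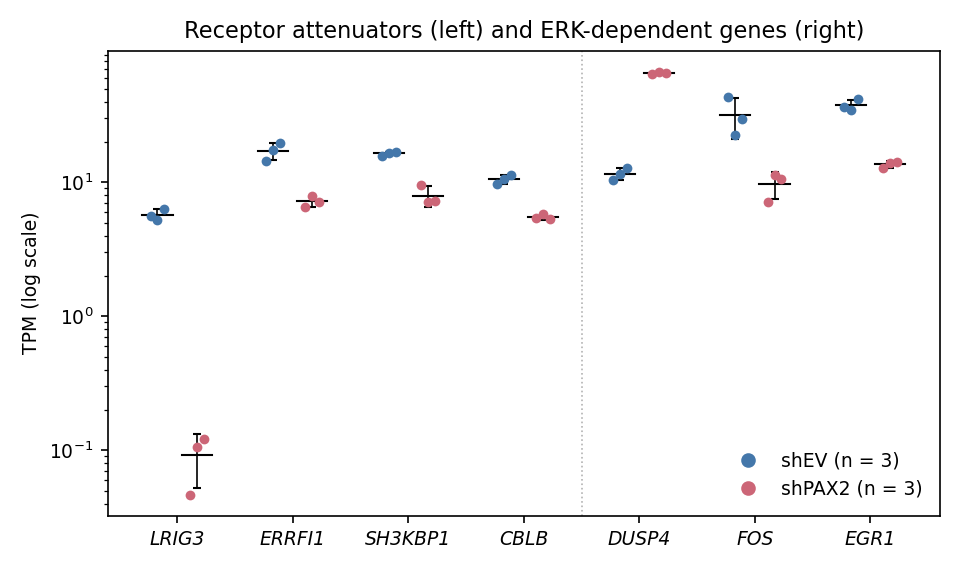
TPM on a log axis of 4 attenuation and trafficking genes and 3 ERK-dependent genes in 3 shEV (blue) and 3 shPAX2 (red) libraries. Points are libraries, horizontal lines group means and bars 1 SD. *LRIG3*, *ERRFI1*, *SH3KBP1*, *CBLB*, *FOS* and *EGR1* are lower in every shPAX2 library than in every shEV library, and *DUSP4* is higher.

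Over all tested genes the share lower in shPAX2 was 30.5%, and scaling by median of ratios or by quantiles, which moves the median of all genes from −0.10 to 0.00, reduced the lower calls of the shedding, attenuation, proximal signalling and ERK output lists. The members and these lists were chosen with earlier results of the same libraries known, so their counts are a description.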

How the data were processed

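Gene expression was measured by RNA-Seq (TruSeq stranded total RNA, rRNA depleted) in 3 shEV and 3 shPAX2 libraries of AN3CA, grouped by their labels. The authors deposited TPM values for 17471 genes named by symbol. Their processing notes name bcl2fastq, STAR, Subread, featureCounts, edgeR and hg19, the study's methods name RSEM for another line, and the counting behind these values is not given in the sources used here. Within a gene, TPM ratios between libraries were ratios of whole numbers in 100% of 16213 genes with values in at least 2 libraries (largest relative deviation 7.15e-14), so whole reads and depths were recovered, leaving open for each gene a constant multiplier that is the same in every library. Reads carry no molecular identifiers, so intervals cover counting error only.

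Genes at 0.5 TPM or more in at least 3 libraries (13163) were tested with limma 3.58.1 in R 4.3.3 (eBayes, robust, with a mean-variance trend) on log2(TPM + 0.5), two-sided, without covariates. Alternatives were other pseudocounts (0.1, 1), filters (1 TPM, none), scalings, a replicate block, limma-voom on the recovered reads, an adjusted p under 0.01 and leaving out each library. Named genes were the members, *PAX2*, list genes past the fold threshold and, beyond these, the highest and lowest of each list. *ADAM17*, *RHBDF1*, *RHBDF2*, *STUB1*, *HSP90AA1*, *CDC37*, *GAB1*, *PIK3CA*, *STAT3*, *DUSP6*, *SPRY2*, *SPRY4*, *ETV4*, *ETV5*, *EPHA2*, *FOSL1*, *SPRED1*, *DYSF*, *ANTXR1* and *SNORA36C* were added after their values were seen. The members and lists were chosen with earlier results of these data known. Positions are from GENCODE 44 on GRCh37, with symbols matched directly (15242) or through RefSeq synonyms (1234), 94.3% in all. TPM values of a library share 1 total, so abundant genes shift the rest.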

Additional observations from a re-analysis of the deposited data

How the results depend on the processing

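Under 16 alternative settings *EGFR*, *TGFA* and *ERBB2* kept their direction and their side of the threshold. The members called numbered 3 as reported and 5 with median-of-ratios scaling and also 5 with quantile normalization, where *ERBB4* (0.51 and 0.66) and *HBEGF* (0.29 and 0.38) passed. *ERBB4* also passed with no filter and without trend (0.45 in both) and with limma-voom (0.80), and was not tested at a filter of 1 TPM. It did not pass with the other pseudocounts, with a replicate block or on leaving out each library in turn. *HBEGF* ran from 0.12 to 0.27 on leaving out each library in turn. Quantile normalization reversed *ERBB3* (0.15), *EGF* (0.13) and *CD82* (0.0693). At an adjusted p under 0.01, 3358 genes (5629 as reported) and 32 list genes (54) were called, by construction of the stricter threshold. Of the 21 list genes named by rule, 14 kept direction and side throughout. The cause of the other changes was not tested. The replicate numbers did not pair the libraries (correlations of deviations −0.0523, 0.0815 and 0.0014). With the number as a replicate block, 3 members and 50 list genes were called, *FOS* no longer passed (−1.64, adjusted p = 0.0686 by limma), and *RNF41* and *PHLDA1* did. *TGFA*, *EREG*, *NRG1* and *ERBB4* had 176 reads or fewer in every library, which limits their precision.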
